A study of Mus musculus with 4 samples.

Results

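The Hox genes of clusters a, b, c and d were 39 of the 24428 genes counted, and they were taken by symbol: Hox, the letter of the cluster and a number. Cluster a held 11 of them, cluster b 10, cluster c 9 and cluster d 9. The data were counts of poly(A) RNA-seq reads per gene in mouse embryonic stem cells, the cultured pluripotent cells of the early embryo. Cells of the 129SvEv background at passage 15 to 20 carried floxed Smarca4 and CreER, a Cre recombinase that 4-hydroxytamoxifen activates, and grew in serum with the cytokine LIF. The ethanol group (n = 2) received the vehicle and the tamoxifen group (n = 2) received 4-hydroxytamoxifen at 0.8 uM, each over 48 h, and both were collected 72 h after the start. Smarca4 encodes the ATPase BRG1, the motor of most BAF (mSWI/SNF) complexes, which move nucleosomes, and the question was which transcripts change after its acute loss. The genotype label is identical in all 4 libraries, and the groups came from the titles and treatment labels. A tamoxifen-treated culture without loxP sites was not analysed here, so deletion, drug and active Cre cannot be told apart. Whether each library is from its own culture is not stated in the labels, so the p-values reflect the spread among these 4 samples alone, and that spread may be technical.

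Hox genes encode homeodomain transcription factors that set position along the body axis, the limbs and the genital tract. In mammals they lie in clusters named a to d on separate chromosomes, and genes with the same number in different clusters are paralogs. Their order within a cluster follows the place and time of their use in the embryo, with low numbers toward the head and high numbers toward the tail. In embryonic stem cells the clusters are known to be covered by Polycomb repression and to give little RNA, and retinoic acid, WNT and FGF signals and CDX factors are known to open them during differentiation. Trithorax group proteins, named for the fly genes that keep Hox genes active, include the fly counterpart of SMARCA4.

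The libraries held 13458463 to 27086142 reads in genes, and 35.0 to 51.7% of all counted reads fell in no gene. Smarca4 stood at 328 and 409 CPM (counts relative to the library's total, adjusted by TMM factors) with ethanol and at 68.5 and 68.7 CPM with tamoxifen, a log2 fold change of -2.43 ± 0.17 (SE) with an adjusted p of 1.08e-05 in edgeR's quasi-likelihood test. Its counts include exons outside the deleted part. The 12 stem cell markers, Pou5f1, Sox2 and Nanog among them, summed to 6200 and 6076 CPM with ethanol and 6221 and 5903 CPM with tamoxifen.

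All 5 promoters printed here belong to genes of cluster d, which had the largest ratio of summed levels, and each is the stretch of 250 bases before an annotated start, read 5' to 3' on the plus strand of chromosome 2 (RefSeq, GRCm38.p6). Capitals mark CCAAT and TATAAA on either strand, so their reverse forms ATTGG and TTTATA are in capitals as well. The windows are chr2:74704365-74704614 for Hoxd8, chr2:74691641-74691890 for Hoxd10, chr2:74682073-74682322 for Hoxd11, chr2:74674763-74675012 for Hoxd12 and chr2:74667975-74668224 for Hoxd13. None of them overlaps an exon in the GENCODE annotation of GRCm38. Hoxd11 has another annotated start with its own window.
Hoxd8: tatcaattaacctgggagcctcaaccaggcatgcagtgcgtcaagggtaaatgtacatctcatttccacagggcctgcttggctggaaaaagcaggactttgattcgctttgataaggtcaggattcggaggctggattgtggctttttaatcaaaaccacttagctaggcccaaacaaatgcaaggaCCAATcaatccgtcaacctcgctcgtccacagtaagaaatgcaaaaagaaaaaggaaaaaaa
Hoxd10: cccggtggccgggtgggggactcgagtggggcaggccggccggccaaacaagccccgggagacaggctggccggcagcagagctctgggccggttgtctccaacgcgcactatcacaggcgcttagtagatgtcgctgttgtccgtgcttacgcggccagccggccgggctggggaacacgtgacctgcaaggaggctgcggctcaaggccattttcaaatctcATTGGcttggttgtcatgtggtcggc
Hoxd11: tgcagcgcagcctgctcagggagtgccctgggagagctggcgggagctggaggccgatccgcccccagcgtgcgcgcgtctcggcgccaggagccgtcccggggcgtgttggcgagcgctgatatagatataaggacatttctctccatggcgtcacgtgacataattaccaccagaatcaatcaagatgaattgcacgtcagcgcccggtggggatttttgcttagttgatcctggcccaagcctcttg
Hoxd12: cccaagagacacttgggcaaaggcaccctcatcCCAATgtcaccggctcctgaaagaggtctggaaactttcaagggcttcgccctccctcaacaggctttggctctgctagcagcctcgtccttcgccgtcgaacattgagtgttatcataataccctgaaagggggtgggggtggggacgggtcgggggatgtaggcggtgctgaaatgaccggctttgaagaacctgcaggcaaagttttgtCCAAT
Hoxd13: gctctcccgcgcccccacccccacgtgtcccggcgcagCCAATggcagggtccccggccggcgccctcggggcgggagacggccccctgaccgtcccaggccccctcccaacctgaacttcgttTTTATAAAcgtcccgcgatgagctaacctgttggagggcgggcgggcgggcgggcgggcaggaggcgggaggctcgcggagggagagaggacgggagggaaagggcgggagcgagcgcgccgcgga
These windows differed widely in composition. Hoxd13 held 31 CpG dinucleotides at 74.4% GC, with 7 matches to GGGCGG (the GC box), some overlapping, whereas Hoxd8 held 6 CpG at 44.4% GC. Over the 24 windows available for 22 Hox genes the median was 12.5 CpG and 58.6% GC, against 6 CpG and 52.4% GC over 32817 windows of all genes. All motifs were searched on both strands. CCAAT was in 14 of the 24 Hox windows (58.3%) and in 33.8% of all windows. TATAAA was in 16.7% of Hox windows and 12.4% of all, and GGGCGG in 41.7% and 32.7%. Letters of a HOX-PBX site (TGATTNAT) were in 8.33% and 2.83%, of a CDX site (TTTATG) in 20.8% and 10.8%, and of a retinoid receptor core motif (AGGTCA) in 25% and 14%. A match is a description of the letters and not a site.

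Reads from Hox genes were few in every library and more frequent with tamoxifen. The 39 genes together had 873 and 915 reads in ethanol replicates 1 and 2 and 1428 and 1436 reads in tamoxifen replicates 1 and 2. That is 56.9 and 35.1 CPM with ethanol against 101 and 80.5 CPM with tamoxifen, a ratio of the group means of 1.97. Both tamoxifen libraries were above both ethanol libraries, and the ethanol libraries differed 1.62-fold from each other. With 2 against 2 libraries an exact permutation test cannot go below 0.33, and this sum was given no test. In bulk RNA, a few cells with high Hox levels and a small rise in every cell cannot be told apart.

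Every Hox gene had at least 1 read, and 35 of 39 had a read in every library. For 29 of the 39 both tamoxifen libraries were above both ethanol libraries in CPM, against 31.1% of the 19818 genes with a read. No Hox gene had both ethanol libraries above both tamoxifen libraries, against 31.4% of genes with a read, and 10 overlapped. The mean CPM was under 1 in ethanol for 25 of the 39 genes.

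After the filter on low counts 30 Hox genes were tested. Of these 19 rose, 0 fell and 11 did not pass an adjusted p of 0.05, whereas 21.5% of the 14479 genes tested were called higher and 22.9% lower. In the range of mean log2 CPM that the tested Hox genes span, 19.8% of 4327 genes were called higher and 15% lower. The filter kept some genes through their tamoxifen libraries: 15 of the 30 passed 0.6 CPM in both ethanol libraries, of which 8 rose, and the other 15 did not, of which 11 rose. Genes of the latter kind entered the test with the help of their tamoxifen libraries, so the count among tested genes is no support for a direction. Without the filter 18 Hox genes were called higher and 0 lower, against 16.1% and 18.3% of 19818 genes. The log2 fold change was above 0 for 30 of the 30 tested Hox genes with and without GC correction, against 49.7% of all tested genes without it and 51.4% with it, a count that the filter also touches.

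The number of Hox calls changed with the libraries used and with GC correction. For fits with a library left out, the share of all genes called is not given here. Whether those changes are particular to Hox genes therefore cannot be told. Without ethanol replicate 1 there were 24 higher calls, without ethanol replicate 2 there were 10, without tamoxifen replicate 1 there were 7 and without tamoxifen replicate 2 there were 9, and 0 lower calls in each. Over all tested genes the log2 fold change followed transcript GC content (Spearman correlation 0.645 across genes), and the tested Hox genes had a median GC content of 53.6% against 50.5% over all tested genes. After a correction of each library for GC content, 9 Hox genes remained higher and 0 lower, against 10.1% and 10% of all genes. Among the 9 were Hoxa3, Hoxa5, Hoxa7, Hoxc5, Hoxc6, Hoxd9, Hoxd10 and Hoxd12. DESeq2 called 6 higher and 0 lower, against 16% and 19.6% of 14439 genes. Only Hoxd9 and Hoxd10 of the tested Hox genes were called with each of the 4 libraries left out in turn, and with GC correction only Hoxd10 was.

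**Figure D1:**
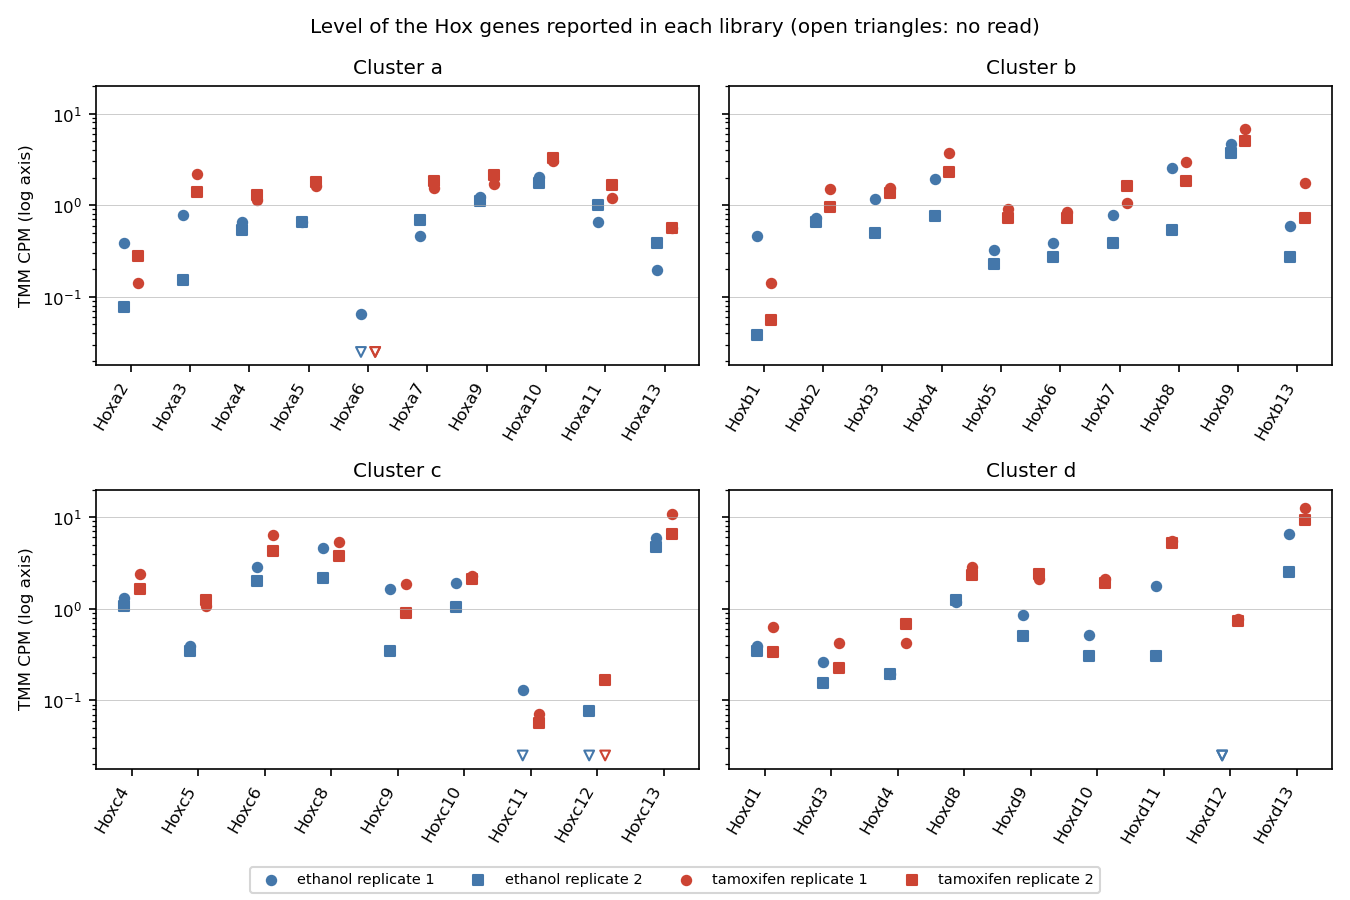
Level of the Hox genes reported in each library (TMM-scaled CPM, log axis), by cluster and in order of number, with ethanol libraries in blue, tamoxifen libraries in red and open triangles at the foot for libraries with no read. Both red points lie above both blue points for most of the genes drawn, and many blue points lie under 1 CPM.

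Cluster d, on chromosome 2, had the largest ratio of summed levels. Its 9 genes summed to 11.7 and 5.53 CPM with ethanol and to 27.4 and 23.0 CPM with tamoxifen, a ratio of 2.92, which became 4.56 without ethanol replicate 1 and 2.15 without ethanol replicate 2. Cluster d held 24.1% of the Hox reads and 37.0% of the Hox difference in summed CPM. All 6 tested members rose, against 21.5% of all tested genes. Of these 6, Hoxd9, Hoxd10, Hoxd11 and Hoxd12 were under the filter's limit in at least 1 ethanol library. Hoxd1, Hoxd3 and Hoxd4 did not reach the test. The count is therefore no support for a direction. The differences between clusters were not tested.

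Hoxd10, which patterns the lumbar spinal cord and hindlimb, had 8 reads in each ethanol library and 30 and 34 in the tamoxifen libraries. These are 0.521 and 0.307 CPM against 2.12 and 1.91 CPM, with the groups well apart. The log2 fold change was 2.34 ± 0.40 (edgeR adjusted p = 0.000878), and 2.61 ± 0.40 with GC correction. Hoxd9, another gene of the lumbar region, had 13 reads in each ethanol library and 30 and 43 with tamoxifen, or 0.847 and 0.499 against 2.12 and 2.41 CPM. Its groups did not overlap either. It rose by a log2 fold change of 1.82 ± 0.37 (edgeR adjusted p = 0.00208), which was 1.15 ± 0.36 and still called with GC correction.

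Hoxd11, which acts with Hoxa11 in the forearm and lower leg, had 27 and 8 reads with ethanol and 78 and 93 with tamoxifen. In CPM these are 1.76 and 0.307 against 5.52 and 5.21, so the ethanol libraries differed more from each other than the tamoxifen libraries did. The log2 fold change was 2.57 ± 0.57 (edgeR adjusted p = 0.0109). It ranged from 1.61 without ethanol replicate 2 to 4.10 without ethanol replicate 1. The call ended without either tamoxifen replicate (2.50 and 2.59) and with GC correction (1.60 ± 0.51).

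Hoxd12, a limb and genital gene, had no read in either ethanol library and 11 and 13 reads in the tamoxifen libraries. The exact 95% interval of the ratio of its pooled rates starts at 7.79, and covers counting error only. Set against 3 counts over the ethanol group, the limit that a count of 0 allows, the observed tamoxifen rate was 10.4 times as high. It was called higher (edgeR adjusted p = 0.000847) with and without GC correction and without either ethanol replicate. Without either tamoxifen replicate it did not reach the filter and was not tested.

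Hoxd13, the digit and genital tubercle gene, had the highest CPM of the Hox genes with tamoxifen. Its counts were 101 and 65 reads with ethanol and 177 and 164 with tamoxifen. The levels were 6.58 and 2.50 CPM against 12.5 and 9.19 CPM, and the groups did not overlap. The log2 fold change was 1.32 ± 0.43 (edgeR adjusted p = 0.0463), with a range from 0.72 without ethanol replicate 2 to 2.11 without ethanol replicate 1. The call ended without either tamoxifen replicate (1.07 and 1.52) and with GC correction (1.53 ± 0.46). Hoxd8, with 18 and 32 reads against 40 and 42 (1.17 and 1.23 against 2.83 and 2.35 CPM), showed close agreement between the ethanol libraries. It rose by a log2 fold change of 1.09 ± 0.30 (edgeR adjusted p = 0.0111). The call ended without tamoxifen replicate 1 (0.96) and with GC correction (0.72 ± 0.30).

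The low-numbered end of cluster d was barely read. Hoxd1 had 6, 9, 9 and 6 reads in ethanol replicates 1 and 2 and tamoxifen replicates 1 and 2. Hoxd3 had 4, 4, 6 and 4, and Hoxd4 had 3, 5, 6 and 12. None of these 3 genes was tested, and only for Hoxd4 were both tamoxifen libraries above both ethanol libraries in CPM. Within cluster d, the 5 genes numbered 9 to 13 summed to 9.71 and 3.61 CPM with ethanol and 23.1 and 19.4 CPM with tamoxifen, a ratio of 3.19 that became 5.89 without ethanol replicate 1 and 2.19 without ethanol replicate 2. The 3 genes numbered 1 to 4 summed to 0.847 and 0.691 CPM against 1.49 and 1.23 CPM, a ratio of 1.77.

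Cluster a, on chromosome 6, summed to 12.9 and 10.5 CPM with ethanol and to 22.2 and 21.4 CPM with tamoxifen, a ratio of 1.87. Of its 11 genes 8 were tested and 6 rose, 4 of them also with GC correction. Of all tested genes 21.5% were called higher, and 10.1% with GC correction. Hoxa3, Hoxa4 and Hoxa7 were under the filter's limit in at least 1 ethanol library, so the count is no support for a direction. The ethanol libraries of cluster a differed 1.23-fold, less than those of the other clusters. Without ethanol replicate 1, ethanol replicate 2, tamoxifen replicate 1 and tamoxifen replicate 2, the number that rose was 5, 2, 3 and 2.

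Hoxa3, which patterns the thymus, parathyroid and throat, had 12 and 4 reads with ethanol and 31 and 25 with tamoxifen (0.782 and 0.154 against 2.19 and 1.40 CPM). The ethanol libraries were several-fold apart, yet both lay under the tamoxifen libraries. It rose by a log2 fold change of 2.13 ± 0.57 (edgeR adjusted p = 0.0116), with 3.47 without ethanol replicate 1. Without ethanol replicate 2 it was 1.17 and not called. Hoxa5, a gene of the lung and the cervical skeleton, had 10 and 17 reads against 23 and 32 (0.652 and 0.653 against 1.63 and 1.79 CPM). Both groups were tight, and the log2 fold change was 1.39 ± 0.36 (edgeR adjusted p = 0.00820), not called without tamoxifen replicate 2 (1.31). Hoxa7, a thoracic gene, had 7 and 18 reads against 22 and 33 (0.456 and 0.691 against 1.56 and 1.85 CPM), and its log2 fold change was 1.51 ± 0.38 (edgeR adjusted p = 0.00705), not called without tamoxifen replicate 2 (1.38).

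Hoxa10, which patterns the uterus and thigh, had 31 and 45 reads against 43 and 58 (2.02 and 1.73 against 3.04 and 3.25 CPM). Its log2 fold change was 0.76 ± 0.27 (edgeR adjusted p = 0.0343), called without ethanol replicate 1 (0.87) but not with any other library left out (0.65 to 0.80) or with GC correction (0.59). Hoxa4 had 10 and 14 reads against 16 and 23 and a log2 fold change of 1.05 ± 0.39 (edgeR adjusted p = 0.0458). Its call ended with each library left out (0.90 to 1.17) and with GC correction (0.54).

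Other genes of cluster a did not pass the test or were not tested. Hoxa9, known from blood stem cells and leukemia, had 19 and 29 reads against 24 and 38, and Hoxa11 had 10 and 26 against 17 and 30. Their log2 fold changes were 0.72 ± 0.32 and 0.76 ± 0.38, with groups that did not overlap in CPM. Hoxa2, the selector gene of the hyoid arch, had 6, 2, 2 and 5 reads, Hoxa13, a digit gene, had 3, 10, 8 and 10, and Hoxa6 had 1 read in ethanol replicate 1 and none elsewhere.

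Cluster b, on chromosome 11, summed to 13.6 and 7.37 CPM with ethanol and to 21.3 and 15.4 CPM with tamoxifen, a ratio of 1.75. The gap between its ethanol libraries was 1.84-fold, as wide as that ratio. Of its 10 genes 9 were tested and 4 (Hoxb4, Hoxb5, Hoxb7 and Hoxb13) rose, against 21.5% of all tested genes. None was called with GC correction or in DESeq2, and the number that rose was 7, 0, 1 and 2 without ethanol replicate 1, ethanol replicate 2, tamoxifen replicate 1 and tamoxifen replicate 2. With the replicate number as a block it was 8, and the share of all genes called with the block is not given here. Hoxb5, Hoxb7 and Hoxb13 were under the filter's limit in at least 1 ethanol library, so these counts are no support for a direction.

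Hoxb4, known for expanding blood stem cells, had 30 and 20 reads with ethanol and 52 and 41 with tamoxifen (1.95 and 0.768 against 3.68 and 2.30 CPM). The lower tamoxifen library was close to the higher ethanol library. Its log2 fold change was 1.22 ± 0.42 (edgeR adjusted p = 0.0359), from 0.59 without ethanol replicate 2 to 1.93 without ethanol replicate 1, and it was not called without ethanol replicate 2 or tamoxifen replicate 1. Hoxb13, a prostate and tail gene, had 9 and 7 reads against 25 and 13 (0.586 and 0.269 against 1.77 and 0.729 CPM), with tamoxifen replicate 1 well above replicate 2. Its log2 fold change was 1.60 ± 0.55 (edgeR adjusted p = 0.0327), from 0.86 without tamoxifen replicate 1 to 2.14 without ethanol replicate 1 or tamoxifen replicate 2, and the same omissions as for Hoxb4 (ethanol replicate 2 or tamoxifen replicate 1) ended its call.

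Hoxb5, a gene of the neural crest and enteric nerves, had 5 and 6 reads against 13 and 13 and a log2 fold change of 1.59 ± 0.51 (edgeR adjusted p = 0.0242), called with all libraries and without ethanol replicate 1 (1.8) but with no other library left out (1.31 to 1.76). Hoxb7 had 12 and 10 reads against 15 and 29 and a log2 fold change of 1.32 ± 0.45 (edgeR adjusted p = 0.0300), which was 0.81 and not called without ethanol replicate 2, and 0.95 and not called without tamoxifen replicate 2. Hoxb6, with 6 and 7 reads against 12 and 13, came just short of the threshold at a log2 fold change of 1.29 ± 0.50 (edgeR adjusted p = 0.0506).

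Hoxb9 was the best-read gene of cluster b, with 71 and 97 reads against 97 and 90, or 4.63 and 3.73 against 6.86 and 5.04 CPM. Its groups did not overlap, but the log2 fold change of 0.52 ± 0.24 did not pass (edgeR adjusted p = 0.0903). Without ethanol replicate 1 it was 0.67 and called higher. Hoxb2 (0.81 ± 0.40) and Hoxb3 (0.89 ± 0.43), both of the hindbrain, did not pass either, but Hoxb3 was 1.52 and called higher without ethanol replicate 1, and 0.30 without ethanol replicate 2. Hoxb8 had 39 and 14 reads against 42 and 33, its groups overlapped (2.54 and 0.538 against 2.97 and 1.85 CPM), and its log2 fold change of 0.78 ± 0.67 became -0.10 without ethanol replicate 2 and 2.13, called higher, without ethanol replicate 1. Hoxb1, a hindbrain segment gene, had 7, 1, 2 and 1 reads and was not tested.

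Cluster c, on chromosome 15, had the most reads and the smallest ratio of summed levels. It summed to 18.7 and 11.8 CPM with ethanol and to 30.1 and 20.7 CPM with tamoxifen, a ratio of 1.67 beside a gap of 1.59-fold between the ethanol libraries. Of its 9 genes 7 were tested and 3 (Hoxc5, Hoxc6 and Hoxc13) rose, against 21.5% of all tested genes. Hoxc5 and Hoxc6 were also called with GC correction, as were 10.1% of all tested genes. Hoxc5 and Hoxc9 were under the filter's limit in at least 1 ethanol library, so the count is no support for a direction. The number that rose was 6, 2, 1 and 2 without ethanol replicate 1, ethanol replicate 2, tamoxifen replicate 1 and tamoxifen replicate 2, and 1 in DESeq2.

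Hoxc6, a gene of forelimb-level motor neurons and the thorax, had 44 and 52 reads with ethanol and 91 and 77 with tamoxifen. At 2.87 and 2.0 against 6.44 and 4.32 CPM its groups were clearly apart. The log2 fold change was 1.16 ± 0.28 (edgeR adjusted p = 0.00548), and 0.85 and not called without tamoxifen replicate 1. Hoxc5 had 6 and 9 reads against 15 and 22 (0.391 and 0.346 against 1.06 and 1.23 CPM), and a log2 fold change of 1.65 ± 0.44 (edgeR adjusted p = 0.00943) that was 1.53 and not called without tamoxifen replicate 2. Hoxc13, the hair and nail gene, had 91 and 122 reads against 152 and 116, or 5.93 and 4.69 against 10.8 and 6.50 CPM. Its log2 fold change was 0.70 ± 0.25 (edgeR adjusted p = 0.04), not called without ethanol replicate 2 (0.53), without tamoxifen replicate 1 (0.30) or with GC correction (0.46).

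Other members of cluster c had reads enough for the test and did not pass it. Hoxc8, a thoracic gene, had 70 and 57 reads against 75 and 67 (4.56 and 2.19 against 5.31 and 3.75 CPM), with groups that overlapped. Its log2 fold change of 0.47 ± 0.34 was -0.02 without ethanol replicate 2, and 1.03 and called higher without ethanol replicate 1. Hoxc9, of thoracic motor neurons, had 25 and 9 reads against 26 and 16, overlapped too, and had a log2 fold change of 0.61 ± 0.68, which was -0.29 without ethanol replicate 2, and 1.92 and called higher without ethanol replicate 1. Hoxc4 (0.76 ± 0.34) and Hoxc10 (0.65 ± 0.34) did not overlap and were not called, but Hoxc10 was 1.08 and called higher without ethanol replicate 1, and 0.22 without ethanol replicate 2. Hoxc11 had 2, 0, 1 and 1 reads and Hoxc12 had 0, 2, 0 and 3, and neither was tested.

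**Figure D2:**
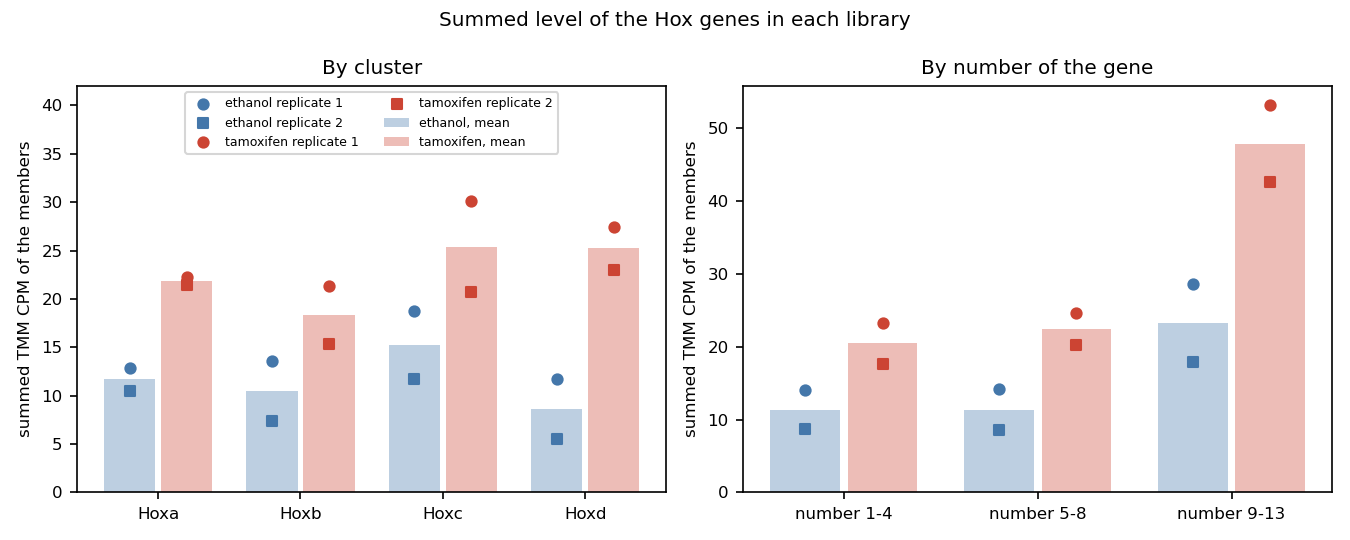
Summed level of the Hox genes (TMM-scaled CPM, axis from 0) in each library, by cluster and by class of gene number, with bars for the group means and points for libraries. In each sum both tamoxifen libraries stand above both ethanol libraries, and among the clusters d has the widest gap between group means, from 11.7 and 5.53 CPM to 27.4 and 23.0 CPM.

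Along the number of the gene, the sums rose to a similar degree. The 12 genes numbered 1 to 4 summed to 14.1 and 8.64 CPM with ethanol and 23.3 and 17.7 CPM with tamoxifen, a ratio of 1.8. The 11 genes numbered 5 to 8 summed to 14.2 and 8.53 against 24.6 and 20.2 CPM, a ratio of 1.97, and the 16 numbered 9 to 13 summed to 28.6 and 18.0 against 53.1 and 42.6 CPM, a ratio of 2.06. Differences between these ratios were not tested. The number that rose was 4 of 7 tested in the first class, 7 of 10 in the middle class and 8 of 13 in the last. Of all tested genes 21.5% were called higher. With GC correction 2, 4 and 3 rose, against 10.1% of all tested genes. In each class some genes passed the filter with the help of their tamoxifen libraries, so these counts are no support for a direction.

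Within the class of high numbers the ratio was 3.19 over the 5 members in cluster d (5.89 without ethanol replicate 1 and 2.19 without ethanol replicate 2) and 1.60 over the 11 members in clusters a, b and c (1.39 to 1.85 with a library left out). That difference was not tested. Across the tested genes the log2 fold change had a Spearman correlation of 0.0462 with the number of the gene (n = 30), and of -0.0361 without Hoxd12 (n = 29). By cluster it was -0.14 in a (n = 8), 0.13 in b (n = 9), -0.54 in c (n = 7) and 0.43 in d (n = 6), and -0.45, 0.23, -0.54 and 0.60 with GC correction. These points share the same 4 libraries. Among paralogs, all 3 genes numbered 5 (Hoxa5, Hoxb5 and Hoxc5) rose and had a summed ratio of 2.84. Of all tested genes 21.5% were called higher, and 10.1% with GC correction. Hoxa7 and Hoxb7 rose as well, with a summed ratio of 2.63. Hoxb5, Hoxc5, Hoxa7 and Hoxb7 were under the filter's limit in at least 1 ethanol library, so these counts are no support for a direction. Hoxb5 and Hoxb7 were not called with GC correction. The 3 tested genes numbered 13 rose, 0 of them with GC correction, and all 4 of that number had a summed ratio of 2.02. Of the 4 genes numbered 9 only Hoxd9 was called. Hoxb13, Hoxc9 and Hoxd9 were also under the filter's limit in at least 1 ethanol library, so these counts too are no support for a direction.

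**Figure D3:**
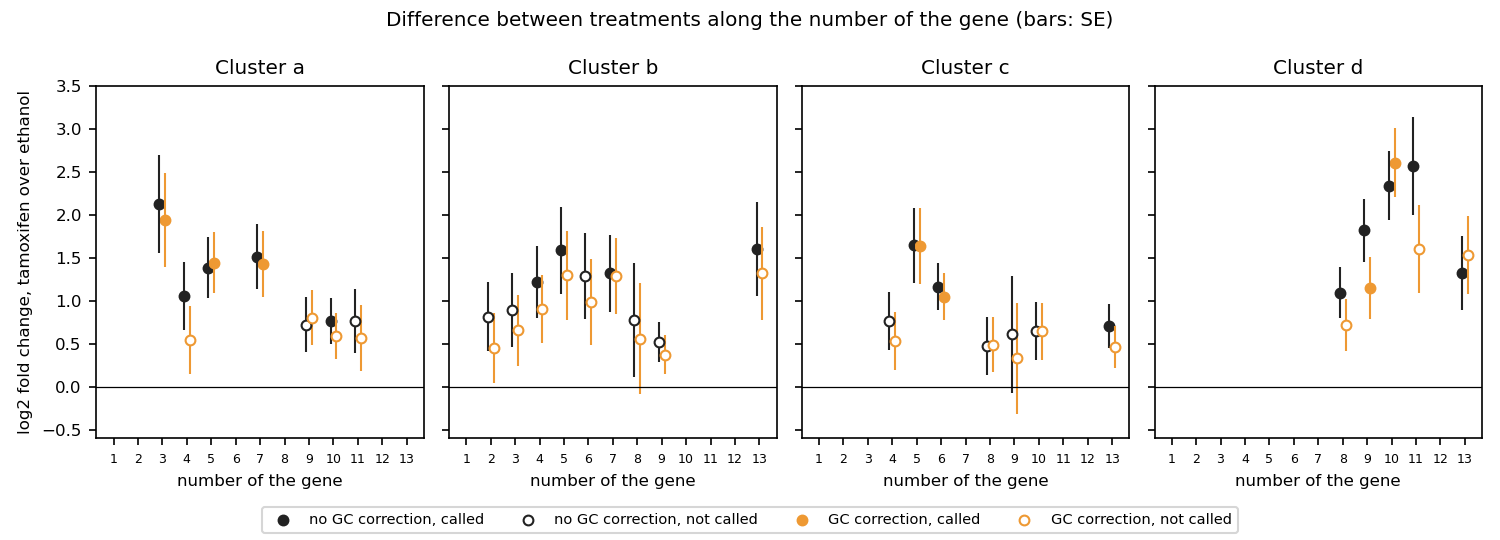
Log2 fold change (tamoxifen over ethanol, bars ± SE) of the tested Hox genes reported against their number, by cluster, without GC correction (black) and with it (orange), with filled points for called genes. Hoxd12 is left out because it had no ethanol read. All points lie above 0, and in cluster d the values without GC correction go from 1.09 at Hoxd8 to 2.57 at Hoxd11 and 1.32 at Hoxd13, and with it from 0.72 at Hoxd8 to 2.61 at Hoxd10, 1.60 at Hoxd11 and 1.53 at Hoxd13.

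Per transcript length (RPKM computed from the counts and the longest coding transcript), Hoxc13 (2.16 ± 0.36, SD, n = 2) and Hoxd13 (1.83 ± 1.16) were among the highest with ethanol and did not differ beyond their spread. With tamoxifen Hoxd11 led at 4.83 ± 0.20 RPKM, and Hoxd13 (4.37 ± 0.95), Hoxc13 (3.51 ± 1.22) and Hoxc6 (3.40 ± 0.95) were next among the genes reported, each overlapping the one before it within its SD. With ethanol Hoxd11 had stood at 0.930 ± 0.92 RPKM. This order depends on the lengths used, 1111 bases for Hoxd11 and 2483 for Hoxd13. In mean CPM with tamoxifen Hoxd11 (5.37) was under Hoxd13 (10.9). The same short transcript gave the GC content of Hoxd11 (68.8%) that its GC correction used.

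Hox levels also differed between libraries of 1 group. Ethanol replicate 1 was above ethanol replicate 2 in CPM for 32 of the 39 genes, against 50.5% of all tested genes, and it was also the library with the largest share of reads in no gene (51.7%). Tamoxifen replicate 1 was above replicate 2 for 26 of the 39, against 46.0% of tested genes. The part of this difference between libraries in the Hox calls was not tested beyond leaving each library out.

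The genes inside and beside the clusters, by the order of genes in RefSeq (all inside and the nearest 5 on each side), are described next. Of 57 such genes 31 were tested, with 12 higher and 6 lower, against 21.5% higher and 22.9% lower of all tested genes. With GC correction 7 were higher and 0 lower, against 10.1% and 10%. Around cluster d none of 7 tested was higher and 5 were lower: Mtx2 (-0.95 ± 0.18), Hnrnpa3 (-0.88 ± 0.15), Lnp (-0.82 ± 0.17), Atf2 (-0.73 ± 0.15) and Agps (-0.64 ± 0.18). None of these 5 was called with GC correction (-0.50 to 0.09). Mtx2, a mitochondrial membrane protein gene, stood at 68.0 and 55.4 CPM with ethanol and Lnp, the lunapark gene of the endoplasmic reticulum, at 50.4 and 69.4 CPM, far above any Hox gene.

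Inside or beside cluster b, by contrast, 8 of 9 tested genes were higher and 0 lower, and 4 with GC correction. Calcoco2, an autophagy receptor gene, had 216 and 280 reads against 480 and 660 and the largest log2 fold change there, 1.53 ± 0.18 (edgeR adjusted p = 0.000114). Gm11517 (1.02 ± 0.18), Ttll6 (0.92 ± 0.19) and Atp5g1 (0.48 ± 0.15) were the others called in both fits. Around cluster a 1 of 9 tested was higher (Mira, described next) and 1 lower (Cbx3, -0.62 ± 0.19, and 0.01 with GC correction), and with GC correction Skap2 (0.14 ± 0.16 without it, 0.60 with it) was called higher in addition to Mira. Around cluster c 3 of 6 were higher and 0 lower, of which 1, Hnrnpa1 (0.45 ± 0.15), was called with GC correction.

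Noncoding transcripts within the clusters were read as little as the Hox genes. Mira, a long noncoding RNA gene inside cluster a, had 7 and 14 reads with ethanol and 29 and 32 with tamoxifen and rose by a log2 fold change of 1.91 ± 0.37 (edgeR adjusted p = 0.00174), also with GC correction (1.91). Gm53, inside cluster b, had 12 and 23 reads against 26 and 28 and rose by 1.0 ± 0.35, a call that GC correction ended (0.94). Hotairm1 (0.65 ± 0.48) and Hoxa11os (0.75 ± 0.46) did not pass. Hotair, the antisense RNA of cluster c, had 2, 1, 0 and 0 reads and Haglr, in cluster d, had 1, 0, 6 and 3. The strand setting of the counting is not given in the sources used here, so reads of overlapping or antisense transcripts cannot be told apart, and reads in the conserved homeobox may have been dropped or split between paralogs.

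**Figure D4:**
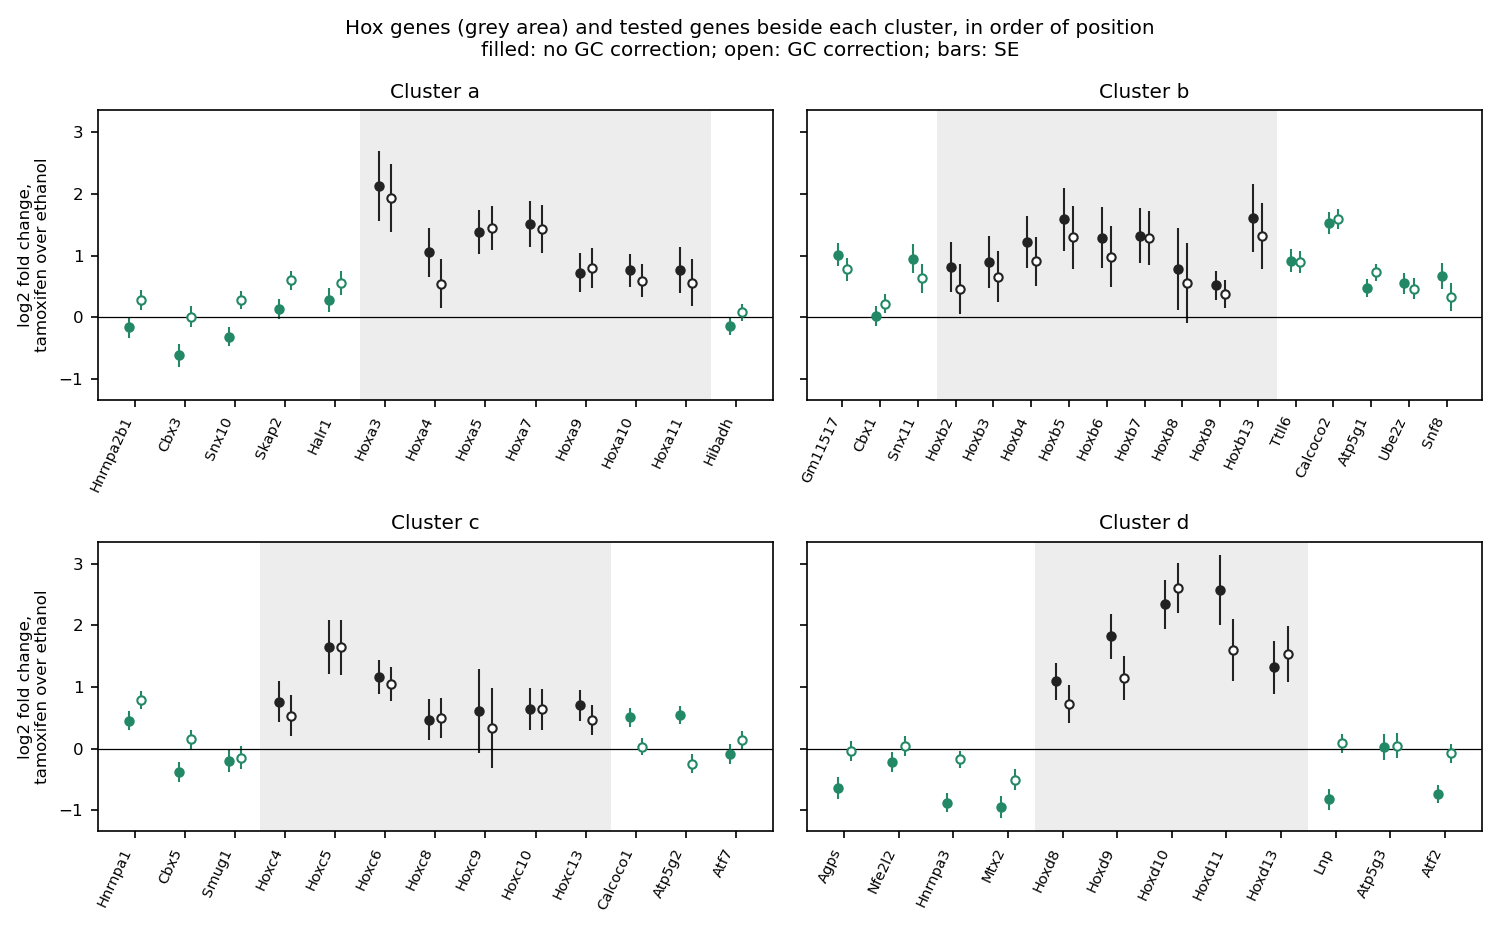
Log2 fold change (tamoxifen over ethanol, bars ± SE) of the tested Hox genes reported (grey area) and of the tested genes beside each cluster (green), in order, without GC correction (filled) and with it (open). Hoxd12 and noncoding genes inside the clusters are not drawn. Beside cluster d the 5 called neighbours lie from -0.95 to -0.64 without GC correction and from -0.50 to 0.09 with it, while the Hoxd genes lie above 0 in both.

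Of 120 homeobox genes outside the clusters, 118 had a read and 62 were tested, with 18 higher and 1 lower (29.0% and 1.61%, against 21.5% and 22.9% of all tested genes), and with 10 higher and 6 lower after GC correction. Their median log2 fold change was 0.43 (0.16 with GC correction), beside 1.13 (0.87) for the tested Hox genes and -0.01 (0.01) for all genes. Lhx1 (1.53 ± 0.25), a regulator of the kidney and head organizer, was higher in both fits. Nkx6-2, a neural tube gene, was the 1 called lower (-1.90 ± 0.29).

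Many markers of fibroblasts, cells that are known to keep Hox expression by body position, were higher with tamoxifen. Of 24 markers 22 were tested, with 17 higher (77.3%, against 21.5% of all tested genes) and 0 lower, and 17 and 0 with GC correction. They summed to 648 and 557 CPM with ethanol and 1195 and 1254 CPM with tamoxifen. Collagen VI genes led, with Col6a1 at 1.88 ± 0.20 and Col6a3 at 1.82 ± 0.17. Lum was at 0.261, 0, 0.425 and 0.224 CPM and Fap at 0.0652, 0.154, 0.425 and 0.336 CPM, while Dcn lay between 0.998 and 1.70 CPM. Pdgfra (0.11), Mmp2 (-0.13) and Twist1 (-0.14) were not called. The part of such cells in the Hox difference was not tested.

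Genes of proteins that work with or control Hox genes were counted beside all tested genes, of which 21.5% were higher and 22.9% lower, and 10.1% and 10% with GC correction. Of 9 HOX cofactors (PBX, MEIS and PKNOX), 3 rose and 3 fell (33.3% each), and 2 and 2 with GC correction. Meis2 (1.15 ± 0.22) was higher and Pknox2 (-1.75 ± 0.31) was lower in both fits. Of 34 Polycomb genes 12 rose and 4 fell (35.3% and 11.8%), and 9 and 1 with GC correction, with a median of 0.16. Phc2 (1.39 ± 0.18), a subunit of PRC1, was higher in both fits, as was Phf1 (1.25 ± 0.19), a PRC2 partner. Among 21 tested Trithorax genes and other Hox regulators 6 rose and 5 fell, and 1 and 3 with GC correction; the 28.6% and 23.8% without it are near the shares of all genes. Mllt3 (-1.45 ± 0.17), of the elongation complexes, Psip1 (-1.06 ± 0.16), a chromatin reader, and Gmnn (-0.88 ± 0.14), geminin, fell in both fits.

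The CDX and ParaHox genes were sparsely read. Of 6 CDX and ParaHox genes 2 were tested and 0 called in either direction in both fits: Cdx1 had 21 and 31 reads against 20 and 17 (-0.12 ± 0.36) and Gsx1 had 23 and 29 against 34 and 30 (0.66 ± 0.33). Cdx2 had 9, 10, 8 and 14 reads and Cdx4 had 2, 4, 6 and 12. Of 14 tested genes of the retinoic acid pathway 6 rose and 1 fell (42.9% and 7.14%, against 21.5% and 22.9% of all tested genes), and 3 and 1 with GC correction. Rarg (1.02 ± 0.15), Rxrb (1.23 ± 0.16), both receptors, and Cyp26b1 (1.42 ± 0.33), which breaks retinoic acid down, were higher in both fits.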

How the data were processed

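Counts of reads per gene in 4 libraries were used as the authors deposited them, with the closing summary lines (no feature 35.0 to 51.7% and ambiguous 0.889 to 1.05% of all counted reads) left out of library sizes and tests. Build mm9 and the tools HTSeq, DESeq2, Bowtie 1.1.1 and CASAVA 1.8.2 are named, per the submitters' processing notes. The sources used here give neither the annotation nor the strand setting. Groups came from the titles and treatment labels.

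The groups were compared over all genes in edgeR 4.0.16 (R 4.3.3) by its quasi-likelihood test (robust, TMM factors, filterByExpr, group only). Of 24428 genes, 4610 had no read and 14479 were tested. P-values were Benjamini-Hochberg adjusted over all tested genes (threshold 0.05), and a standard error is the size of the log2 fold change divided by the root of F. The biological coefficient of variation was 12.6%. Sampling noise did not account for the differences between replicates (chi-square over its degrees of freedom was 37.0 in ethanol, 10.5 in tamoxifen).

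GC correction fitted each library's deviation against transcript GC content by loess (span 0.5) and entered it as an offset. GC content, lengths and exons came from GENCODE vM21 (GRCm38), which is not the build of the files, and 99.4% of tested genes had a value. Direct matches were found for 23535 symbols, matches by synonym for 501, and none for 392. Gene order and promoters came from RefSeq. Total counts in place of TMM shifted the median over all tested genes from -0.01 to 0.12 (log2).

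The results name Hox genes from the whole set, of each other list at most the 4 members with the smallest adjusted p, any tested neighbour, and markers near 0. The other lists were homeobox genes outside the clusters, HOX cofactors, Polycomb, Trithorax and other regulators, CDX and ParaHox, retinoic acid, posterior axis, anterior neural, fibroblast and stem cell markers. Cdx2, Cdx4, Dcn, Pdgfra, Mmp2, Twist1 and the untested noncoding RNAs were named outside that rule. Some genes of these lists are not reported here by name or drawn, though counts and sums include them. Some genes stand in more than 1 list. The members and lists were chosen with earlier results of these data known. Alternatives were RLE, upper-quartile and total-count scaling, other filters and thresholds, DESeq2 1.42.0, limma 3.58.1 voom, a replicate block, GC correction and leaving out each library. GC correction without a filter was added after seeing the data. The procedure was tested on simulated data. Precision is limited by the low counts.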

Additional observations from a re-analysis of the deposited data

How the results depend on the processing

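No Hox gene was called lower under any alternative tried. Over all tested genes the share called higher was 21.5% in the main fit, 16% with DESeq2 and 10.1% with GC correction. For most other settings that share is not given here. Whether the changes in Hox calls under them are particular to Hox genes therefore cannot be told. The 19 higher calls became 6 with DESeq2, 9 with GC correction, 7 at an adjusted p under 0.01 and 14 with GC correction and no filter, and were 16 to 23 under the other scalings, filters, voom, the fold limit and the block. With 1 library left out they ranged from 7 to 24, and with GC correction as well from 1 to 18. In cluster a the 6 calls became 1 with DESeq2 and 2 at 0.01, and ranged from 2 to 5 with a library left out, or 0 to 4 with GC correction as well. In cluster b the 4 calls became 0 with DESeq2, 0 with GC correction and 0 at 0.01. With a filter of 1 CPM 2 were left, because Hoxb5 and Hoxb13 then did not reach the test. In cluster c the 3 calls became 1 with DESeq2, and ranged from 1 to 6, or 0 to 5. In cluster d the 6 calls became 3 with GC correction and 3 at 0.01, and ranged from 2 to 6, or 1 to 5.

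With the replicate number as a block, the Hox calls were 23 in place of 19 (8 in place of 4 in cluster b). They were 15 with GC correction and the block. The share of all genes called with the block is not given here. Same-numbered libraries deviated together with a correlation of 0.234, which with 2 pairs does not show that the numbers pair the samples.

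The ratio of summed levels stayed above 1 with each library left out: 1.60 to 2.58 for all Hox genes, 1.69 to 2.08 for cluster a, 1.35 to 2.49 for b, 1.36 to 2.16 for c and 2.15 to 4.56 for d, and 2.16 for all Hox genes with total counts. These ratios come from no fit. In the edgeR fits with a library left out, the group with 1 library left takes its spread from the other group. The 9 untested genes had at most 12 reads in any library, and 0 of them were called in the fit without a filter.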

Other observations

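Of 18 genes of the tail end of the embryo, where Hox genes are switched on in turn, 11 were tested, with 2 higher and 1 lower (18.2% and 9.09%, against 21.5% and 22.9% of all tested genes), and 2 higher and 3 lower with GC correction, and with a median log2 fold change of 0.10 (-0.40 with GC correction). Fgf8 (2.34 ± 0.53) and Wnt5a (0.95 ± 0.21), ligands of the growing tail bud, rose in both fits, and Dll1 (-0.90 ± 0.29), a Notch ligand, fell in both. Of 13 tested genes of the anterior neural plate and brain, where most Hox genes are silent in the embryo, 4 rose and 0 fell (30.8% higher), and 1 and 0 with GC correction. Pax6 (0.94 ± 0.22) was higher in both fits, and Sox1 (0.88 ± 0.20), Irx3 (0.89 ± 0.31) and En1 (0.78 ± 0.28) only without GC correction.

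Of the 12 stem cell markers 1 rose and 2 fell, against 21.5% and 22.9% of all tested genes. With GC correction 3 rose and 3 fell, against 10.1% and 10%. Fgf4 (-0.93 ± 0.15) fell and Dppa5a (0.53 ± 0.15) rose in both fits.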
